A study of Rattus norvegicus with 9 samples.

Results

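The genes described here encode the respiratory chain of the mitochondrion. They were taken from read counts of rat striatal tissue by name: gene IDs starting with Nduf and one of the letters a, b, c, s or v, the genes Sdha to Sdhd, IDs starting with Uqcr, Cox followed by a digit from 4 to 8, or Atp5, and all IDs starting with Mt-. This rule found 99 of the 22890 gene IDs, of which 86 were nuclear genes and 13 were encoded by the mitochondrial DNA, and both sets were kept apart. The data comprise 9 libraries in 3 groups of 3: Sham, the controls; ICH, in which blood had escaped into the brain (intracerebral hemorrhage); and EDB, which stands for edaravone dexborneol, an antioxidant drug made of edaravone, which scavenges free radicals, and dexborneol. Strain, age, sex, dose and time are not in the labels, nor is it stated that EDB rats had bled, and EDB was set against each of the other groups. It is also not stated that replicate libraries are from different animals, and p-values therefore measure the spread between these samples, which may be technical.

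Complexes I to IV of the inner mitochondrial membrane pass electrons from NADH and succinate to oxygen. Complexes I, III and IV also pump protons, and ATP synthase uses the resulting gradient to make ATP. Most subunits are nuclear genes whose proteins are imported, while a small set of core subunits of complexes I, III and IV and of ATP synthase is transcribed from the mitochondrial DNA. Complex II, which is also the succinate dehydrogenase of the TCA cycle, is entirely nuclear. In the striatum, as elsewhere in the brain, neurons depend heavily on this pathway for the ATP that restores ion gradients.

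Total counts ran from 14658110 to 17659936 per library. Levels are in CPM, counts scaled to the TMM-adjusted library size, and differences are log2 fold changes ± SE (n = 3 per group). The words rose and fell are used where the Benjamini-Hochberg adjusted p from edgeR's quasi-likelihood F test, over all 14274 genes tested, was under 0.05. Principal components of the genes outside the respiratory chain placed the groups in separate ranges along the first axis (41.08% of the variance). On the second axis (19.04%) Sham 2 scored -36.21 against 31.83 and 34.97 in Sham 1 and Sham 3. In ICH 1 the genes Kdm5d and Eif2s3y of the Y chromosome had 0 counts, which allows up to 0.175 CPM, against 151 to 313 and 49 to 148 counts in the other 8 libraries. ICH 1 was therefore not from the same animal as ICH 2 or ICH 3, while for the other replicates this is not known. Summed choroid plexus markers stood at 7220 CPM in EDB 3 and between 27.6 and 73.3 CPM in the other 8. Counts of respiratory genes are therefore also given without these libraries. In bulk tissue, fewer cells of a type and less RNA per cell cannot be told apart.

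Of the 86 nuclear genes, 79 passed the filter on low counts. In ICH against Sham 18 of these 79 fell and 0 rose, where 7.30% of all tested genes fell and 11.4% rose. At an unadjusted p under 0.05 the count was 34 lower and 0 higher, against 13.8% and 17.7% of all genes, and DESeq2 also called 0 higher. In 34 of the 79 genes all ICH libraries lay below all Sham libraries, as they did in 15.4% of all genes. The log2 fold change was below 0 in 65 of the 79 (49.3% of all genes), with a median of -0.28 against 0.01 over all genes. The summed level of all 86 nuclear genes was 8508, 10244 and 8230 CPM in Sham, 7158, 7882 and 7939 CPM in ICH and 9756, 8664 and 9701 CPM in EDB. All ICH sums were below all others, and the EDB and Sham sums overlapped.

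Complex IV, cytochrome c oxidase, which passes electrons to oxygen, had 4 fallen genes of 13 tested (median -0.42). Cox6a1, a subunit facing the intermembrane space, stood at 386, 464 and 405 CPM in Sham and at 257, 278 and 285 CPM in ICH. The ICH libraries lay well below the Sham range, and Cox6a1 fell with a log2 fold change of -0.61 ± 0.12 (adjusted p = 0.00415). Cox7c, a small membrane-spanning subunit, stood at 50.2, 53.7 and 60.03 CPM in Sham and 34.2, 37.4 and 36.7 CPM in ICH, a log2 fold change of -0.60 ± 0.13 (adjusted p = 0.00823). In both genes the groups did not overlap and the libraries of each group lay close together. Cox6c, another small membrane subunit, stood at 123, 138 and 131 CPM in Sham and 92.2, 87.1 and 97.1 CPM in ICH (-0.51 ± 0.12, adjusted p = 0.0138). Cox4i1, the general isoform of the subunit through which ATP regulates the enzyme, stood at 472, 596 and 452 CPM in Sham and 310.2, 378 and 377 CPM in ICH (-0.51 ± 0.15, adjusted p = 0.0365). Sham 2 was the highest and ICH 1 the lowest Cox4i1 library. Among the other complex IV genes, Cox5a, a matrix-side subunit, had 106, 129 and 91.1 CPM in Sham and 76.6, 99.5 and 93.1 CPM in ICH and was not called (-0.28 ± 0.16, adjusted p = 0.265), and Cox6b1, which joins the monomers of the enzyme, lay just outside the threshold (-0.39 ± 0.13, adjusted p = 0.0538).

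Complex I, NADH dehydrogenase, is the largest complex of the chain and takes electrons from NADH. Its accessory subunits surround the catalytic core, and 7 of the 28 tested fell in ICH (median -0.36). The 28 were sorted by name and include Ndufa4, now counted as a subunit of complex IV, and Ndufa4l2. Ndufc1, a small membrane-arm subunit, stood at 21.6, 25.4 and 24.99 CPM in Sham and 16.9, 14.6 and 17.5 CPM in ICH (-0.56 ± 0.14, adjusted p = 0.018). Ndufa8, a subunit of the intermembrane space, stood at 80.8, 99.5 and 96.6 CPM in Sham and 69.3, 61.7 and 66.6 CPM in ICH (-0.49 ± 0.13, adjusted p = 0.02). Both genes were lower in each ICH library than in any Sham library. Ndufa6, a LYR-motif subunit of the matrix arm, had 76.99, 74.97 and 70.2 CPM in Sham and 50.3, 56.2 and 56.7 CPM in ICH (-0.45 ± 0.12, adjusted p = 0.0224). Ndufb8, a membrane-arm subunit often used as a protein marker of assembled complex I, had 142, 181 and 139 CPM in Sham and 95.4, 113 and 112 CPM in ICH (-0.53 ± 0.15, adjusted p = 0.028). The Sham spread of Ndufb8 came mainly from Sham 2. Ndufa4l2, a paralogue of Ndufa4 known as a target of hypoxia-inducible factor and counted here by its name, had 12.2, 12.996 and 11.8 CPM in Sham and 7.52, 8.75 and 6.697 CPM in ICH (-0.69 ± 0.19, adjusted p = 0.0258). The remaining 2 fallen accessory genes were the membrane-arm subunit Ndufb3 (-0.45 ± 0.14, adjusted p = 0.0408) and the intermembrane-space subunit Ndufs5 (-0.45 ± 0.14, adjusted p = 0.045).

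Of 6 tested nuclear core subunits of complex I, which carry the flavin and the iron-sulfur clusters or frame the quinone site, 2 fell (median -0.25). Ndufs3 stood at 48.7, 59.4 and 41.8 CPM in Sham and 36.03, 32.5 and 38.1 CPM in ICH (-0.49 ± 0.15, adjusted p = 0.0476), and Ndufs7, which holds the last iron-sulfur cluster before ubiquinone, stood at 83.4, 97.2 and 72.7 CPM in Sham and 57.7, 68.96 and 56.3 CPM in ICH (-0.47 ± 0.15, adjusted p = 0.0485). Both calls were just inside the threshold. The largest core subunit, Ndufs1, was not called and had a difference above 0, at 102, 93.5 and 104 CPM in Sham and 124, 102 and 108 CPM in ICH (0.16 ± 0.12, adjusted p = 0.431). Ndufv1, which binds NADH and the flavin, had 188, 239 and 169 CPM in Sham and 145, 184 and 178 CPM in ICH (-0.24 ± 0.15, adjusted p = 0.33), and its groups overlapped. None of the 7 tested complex I assembly factors of the Ndufaf series was called in either direction (median -0.28).

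ATP synthase had 4 fallen genes of 14 (median -0.22), and all 4 encode small subunits of the membrane part or the peripheral stalk. Atp5mk, a membrane subunit that takes part in joining the dimers of the enzyme, stood at 51.7, 55.7 and 54.9 CPM in Sham and 36.4, 34.9 and 38.2 CPM in ICH. Its libraries were tight within each group, and it fell with a log2 fold change of -0.57 ± 0.13 (adjusted p = 0.0132). Atp5me, subunit e, had 23.9, 31.3 and 22.9 CPM in Sham and 13.4, 17.8 and 18.5 CPM in ICH (-0.65 ± 0.20, adjusted p = 0.0403), and Atp5mg, subunit g, had 129, 160.4 and 133 CPM in Sham and 90.8, 111 and 110.5 CPM in ICH (-0.44 ± 0.14, adjusted p = 0.0493). Atp5pf, coupling factor 6 of the stalk, had 72.1, 70.8 and 73.1 CPM in Sham and 56.7, 56.8 and 56.003 CPM in ICH (-0.35 ± 0.11, adjusted p = 0.0451). The Atp5pf libraries differed within a group by far less than between the groups. The catalytic head was not called: Atp5f1a had 689, 925 and 686 CPM in Sham and 676, 739 and 742 CPM in ICH (-0.09 ± 0.14, adjusted p = 0.718), and Atp5f1b had 1149.5, 1356 and 1043 CPM in Sham and 928, 1065 and 1047 CPM in ICH (-0.22 ± 0.13, adjusted p = 0.294). Atp5if1, the inhibitor that stops the enzyme from consuming ATP when respiration fails, was not called either (-0.18 ± 0.12, adjusted p = 0.353).

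Complex III, which passes electrons from ubiquinol to cytochrome c, had 1 fallen gene of 7 (median -0.18). It was Uqcrh, the hinge protein that contacts cytochrome c1, at 56.8, 60.9 and 53.4 CPM in Sham and 37.1, 41.2 and 42.1 CPM in ICH (-0.51 ± 0.14, adjusted p = 0.0253). Uqcrfs1, the Rieske iron-sulfur protein, had 127, 159 and 124 CPM in Sham and 133, 144 and 142 CPM in ICH (0.03 ± 0.12, adjusted p = 0.914), and the core protein Uqcrc1 had a log2 fold change of -0.18 ± 0.18 (adjusted p = 0.551). Both had overlapping groups.

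Complex II had 0 called genes of 4, and its median log2 fold change was 0.07. The flavoprotein Sdha stood at 319, 331 and 297 CPM in Sham and 256, 281 and 283 CPM in ICH (-0.21 ± 0.11, adjusted p = 0.207), with all ICH libraries below the Sham libraries. The iron-sulfur subunit Sdhb stood at 115, 153 and 125 CPM in Sham and 135, 141 and 143 CPM in ICH (0.09 ± 0.12, adjusted p = 0.686), and the membrane anchors Sdhc and Sdhd had log2 fold changes of 0.13 ± 0.12 and 0.06 ± 0.13. As a share of all nuclear respiratory counts, complex II took 8.17%, 7.71% and 7.99% in Sham, 9.21%, 8.97% and 9.22% in ICH and 8.49%, 8.74% and 8.04% in EDB. The ICH shares lay above those of both other groups. This share was looked at after the values of the single genes had been seen and was not tested.

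**Figure D1:**
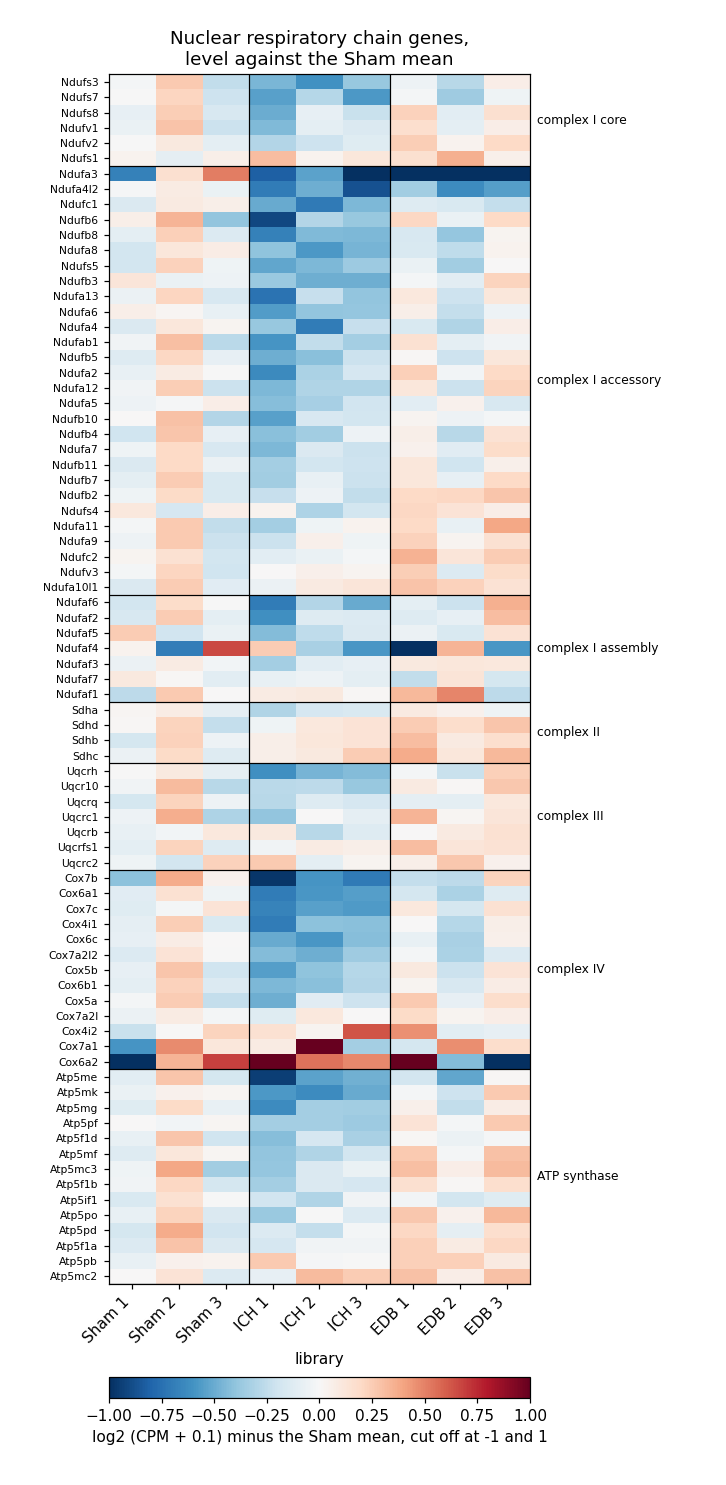
Each row is 1 of the 79 tested nuclear genes, each column 1 library, and the colour is the log2 level minus the Sham mean, with rows grouped by complex and blue for lower. The ICH columns are blue in most rows of complexes I and IV and of ATP synthase, whereas the complex II rows other than Sdha are pale, and Sham 2 is redder than Sham 1 and Sham 3 in most rows.

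The number of fallen genes depended on single libraries. Sham 2 was the highest Sham library for 64 of the 79 genes and ICH 1 the lowest ICH library for 52. Without Sham 2 the count was 8 and the median log2 fold change -0.15, without ICH 1, ICH 2 or ICH 3 it was 6 each time, and without Sham 1 or EDB 1 it was 10. Without Sham 2 and ICH 1 together it was 2, with a median of -0.12, and without Sham 2, ICH 1 and EDB 3 it was 5, with a median of -0.13. Scaling by library size alone gave 6, with a median of -0.17 where the median of all genes became 0.10, and turned the split of all calls from 1042 lower and 1628 higher into 691 lower and 2008 higher. Cox6a1 and Cox7c were called under all 20 alternatives tried. Atp5mk lost its call only without Sham 2 and ICH 1 together (adjusted p = 0.0589), and Cox6c lost it without ICH 2 (adjusted p = 0.0536) and without Sham 2 and ICH 1 together (adjusted p = 0.0579). Leaving out 1 library ended the call of Ndufc1 (Sham 3 or ICH 2 left out, adjusted p between 0.0571 and 0.0636), Ndufa6 (Sham 1 or ICH 1, 0.0583 to 0.082), Ndufa8 (Sham 3, ICH 2 or ICH 3, 0.0549 to 0.0733), Uqcrh (Sham 2 or any ICH library, 0.0525 to 0.0908) and Ndufb8 (the same libraries, 0.0536 to 0.105). It also ended that of Ndufa4l2 (any Sham library, ICH 1 or ICH 3, 0.0522 to 0.0947) and Cox4i1 (Sham 2, any ICH library or EDB 1, 0.0541 to 0.132). The calls of the other 7 genes, Atp5me, Atp5mg, Atp5pf, Ndufb3, Ndufs3, Ndufs5 and Ndufs7, were each lost without 6 to 8 of the 9 libraries (adjusted p from 0.0505 to 0.167).

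Markers of cell types moved in the same comparison, ICH against Sham, where 7.30% of all tested genes fell and 11.4% rose. Of 10 neuron markers 2 fell and 0 rose, and their summed level was 3293 to 4569 CPM in Sham, 2716 to 3110 CPM in ICH and 3395 to 4028 CPM in EDB, with Sham 2 again the highest library. Among 9 tested markers of striatal projection neurons 4 fell and 0 rose, with sums of 7924 to 12798 CPM in Sham, 5677 to 7108 CPM in ICH and 8342 to 9550 CPM in EDB. Of 11 markers of microglia and macrophages 9 rose and 0 fell, with sums of 884 to 1117 CPM in Sham, 3268 to 3647 CPM in ICH and 1741 to 2902 CPM in EDB. Of 7 astrocyte markers 2 rose and 1 fell, with sums of 3529 to 4238 CPM in Sham, 8325 to 8478 CPM in ICH and 5683 to 6594 CPM in EDB. Most of the difference in these sums came from Gfap, with means of 484 CPM in Sham, 4918 CPM in ICH and 3234 CPM in EDB. The other risen marker was Gja1 (0.60 ± 0.14, adjusted p = 0.0107), and Aldoc fell (-0.62 ± 0.18, adjusted p = 0.0317). Of 8 markers of pericytes and smooth muscle 1 rose and 3 fell, with overlapping sums of 339 to 485 CPM in Sham, 423 to 592 CPM in ICH and 228 to 456 CPM in EDB. The risen gene, Tagln, made up a large part of the ICH sums, with means of 56.0 CPM in Sham and 282 CPM in ICH. The fallen genes were Vtn (-0.97 ± 0.14), Myh11 (-1.15 ± 0.27) and Acta2 (-1.38 ± 0.33). Of 5 tested endothelial markers 1 fell, with sums of 258 to 448, 205 to 276 and 219 to 239 CPM. None of 7 oligodendrocyte markers was called in ICH against Sham. Their sums were 17014 to 27882 CPM in Sham, 16460 to 32746 CPM in ICH and 38523 to 44101 CPM in EDB, so that each EDB library lay above all others. No tested marker of these 7 lists was at 0 in every library. None was called in EDB against ICH, where 0.687% of all tested genes were. The part of these shifts in the respiratory gene levels, in ICH or in EDB, was not tested.

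Promoters are shown for 5 genes because many nuclear respiratory genes are known targets of the transcription factor NRF1 and of ETS-family factors such as GABP, also called NRF2. Sequences of 300 bases, 250 before to 50 after the start, were taken from RefSeq on GRCr8, a later assembly than the one named for the counts, and 71 of the 79 tested nuclear genes had one. The motifs searched on both strands were GCGCA followed by any base and GCGC for NRF1, and CCGGAAG for ETS factors, and they did not overlap with each other in the promoters shown. Atp5me (chr14:1464610-1464909, plus strand), Atp5mk (chr1:255921998-255922297, minus strand) and Ndufs5 (chr5:141264353-141264652, minus strand) fell in ICH. Sdha (chr1:30764303-30764602, plus strand) and Sdhb (chr5:158547684-158547983, plus strand) were not called. Sequences run from 5′ to 3′ on the gene's strand, and capitals mark the motifs.
Atp5me: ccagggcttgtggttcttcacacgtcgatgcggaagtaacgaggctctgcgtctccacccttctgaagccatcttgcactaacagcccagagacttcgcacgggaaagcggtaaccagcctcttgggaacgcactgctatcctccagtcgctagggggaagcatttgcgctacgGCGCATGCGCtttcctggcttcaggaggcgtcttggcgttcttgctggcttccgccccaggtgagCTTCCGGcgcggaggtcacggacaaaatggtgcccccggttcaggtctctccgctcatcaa
Atp5mk: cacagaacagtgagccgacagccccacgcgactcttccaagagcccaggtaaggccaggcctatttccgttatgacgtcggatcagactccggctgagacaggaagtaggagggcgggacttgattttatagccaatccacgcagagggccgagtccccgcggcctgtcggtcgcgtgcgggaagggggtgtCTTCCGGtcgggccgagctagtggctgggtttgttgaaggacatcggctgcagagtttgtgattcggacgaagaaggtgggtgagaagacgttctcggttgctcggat
Ndufs5: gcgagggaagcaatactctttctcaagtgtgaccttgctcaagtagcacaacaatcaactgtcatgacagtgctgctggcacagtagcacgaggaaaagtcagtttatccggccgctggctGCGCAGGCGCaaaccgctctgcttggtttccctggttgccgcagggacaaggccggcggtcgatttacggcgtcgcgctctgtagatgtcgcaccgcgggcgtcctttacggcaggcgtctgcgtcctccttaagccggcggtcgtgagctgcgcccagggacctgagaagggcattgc
Sdha: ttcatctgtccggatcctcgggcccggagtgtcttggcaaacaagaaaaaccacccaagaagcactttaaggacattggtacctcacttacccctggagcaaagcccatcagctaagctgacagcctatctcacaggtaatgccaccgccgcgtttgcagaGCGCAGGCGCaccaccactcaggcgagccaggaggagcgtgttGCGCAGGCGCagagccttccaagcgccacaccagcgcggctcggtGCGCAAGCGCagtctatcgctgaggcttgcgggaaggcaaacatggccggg
Sdhb: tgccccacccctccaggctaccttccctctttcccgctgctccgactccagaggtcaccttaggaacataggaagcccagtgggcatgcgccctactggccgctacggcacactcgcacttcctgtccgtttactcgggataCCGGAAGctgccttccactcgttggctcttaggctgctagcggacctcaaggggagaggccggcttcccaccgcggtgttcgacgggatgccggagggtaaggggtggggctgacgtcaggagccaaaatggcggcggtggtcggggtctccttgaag

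The NRF1 motif was present in 14 of the 71 promoters (19.7%), against 8.61% of the promoters of 12322 tested genes and 4.25% of all 33469 promoters. The ETS motif was present in 19 of the 71 (26.8%), against 15.2% and 8.75%. Either motif was found in 32 of the 71 (45.1%), against 22% of tested genes. Among the 15 matched genes that fell in ICH, 2 held the NRF1 motif and 7 the ETS motif, and among the 56 that were not called 12 held each. The promoter of Atp5me held both motifs, whereas Sdha, which was not called, held 3 copies of the NRF1 motif. A match describes letters in this window and not a bound site, and these shares were not tested.

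In EDB against ICH 0 of the 79 nuclear genes were called, where 0.0560% of all tested genes rose and 0.631% fell. At an unadjusted p under 0.05 the count was 40 higher and 0 lower, against 6.27% and 9.97% of all genes. In 49 of the 79 genes all EDB libraries lay above all ICH libraries, as in 11.6% of all genes. The log2 fold change was above 0 in 73 of 79 (46.2% of all genes), with a median of 0.30 against -0.03. This comparison shares the ICH libraries with that of ICH against Sham, so the opposite signs are not independent of each other. DESeq2 called 7 nuclear genes higher, limma-voom called 1, and edgeR called 2 without Sham 2.

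Cox7c had the smallest p, at 34.2, 37.4 and 36.7 CPM in ICH and 58.7, 48.3 and 60.6 CPM in EDB (0.63 ± 0.13, adjusted p = 0.058, called by DESeq2, by limma-voom and without Sham 2 at adjusted p = 0.00153, 0.0484 and 0.041). Atp5pf stood at 56.7, 56.8 and 56.003 CPM in ICH and 79.3, 70.98 and 86.1 CPM in EDB (0.48 ± 0.11, adjusted p = 0.0708, called by DESeq2 and without Sham 2 at adjusted p = 0.00368 and 0.0469). Atp5mk stood at 36.4, 34.9 and 38.2 CPM in ICH and 53.5, 46.9 and 64.9 CPM in EDB (0.59 ± 0.13, adjusted p = 0.0714). In these 3 genes each EDB library was above each ICH library and EDB 2 was the lowest of its group. Atp5mf, subunit f of the membrane part, had 76.6, 81.5 and 88.5 CPM in ICH and 120.4, 99.2 and 123 CPM in EDB (0.48 ± 0.12, adjusted p = 0.102). The hinge protein Uqcrh (0.52 ± 0.14, adjusted p = 0.105) and Ndufb3 (0.49 ± 0.14, adjusted p = 0.119) had log2 fold changes of like size. Across all 79 genes EDB 2 was the lowest EDB library for 62. Among the catalytic and regulatory subunits Ndufs1, Ndufv1, Sdha, Sdhb, Uqcrc1, Uqcrfs1, Cox4i1, Cox5a, Atp5f1a, Atp5f1b and Atp5if1, log2 fold changes ran from 0.04 ± 0.12 for Ndufs1 to 0.44 ± 0.15 for Cox4i1, and none was called.

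In EDB against Sham 1 nuclear gene fell and 0 rose, where 2.71% of all genes fell and 4.95% rose. The median was 0.04 against -0.01 over all genes, and it was -0.0037 without Sham 1, -0.02 without Sham 3 and 0.13 without Sham 2. The fallen gene was Ndufa3, an accessory subunit of complex I, whose counts were low at 30, 50 and 62 in Sham, 29, 33 and 25 in ICH and 20, 13 and 16 in EDB. In CPM these were 1.87, 3.42 and 4.39, 1.69, 2.08 and 1.35 and 1.24, 0.779 and 1.0003, and the log2 fold change of EDB against Sham was -1.67 ± 0.41 (adjusted p = 0.0332). The EDB libraries lay below all others, and the call was lost without Sham 3, ICH 2 or any 1 EDB library (adjusted p from 0.0505 to 0.135) and with limma-voom (adjusted p = 0.0579).

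Next by p, and not called, came Ndufa4l2, at 12.2, 12.996 and 11.8 CPM in Sham and 9.65, 7.91 and 8.38 CPM in EDB (-0.51 ± 0.19, adjusted p = 0.126). Sdhc had 142, 169 and 135 CPM in Sham and 191, 160.4 and 185 CPM in EDB (0.27 ± 0.12, adjusted p = 0.232), and Ndufc2, a membrane-arm subunit, had a log2 fold change of 0.24 ± 0.12 (adjusted p = 0.261). Cox6a1 had 386, 464 and 405 CPM in Sham and 368, 334 and 382 CPM in EDB, with no overlap but no call (-0.21 ± 0.12, adjusted p = 0.316), and Ndufb2, another membrane-arm subunit, had 0.22 ± 0.12 (adjusted p = 0.316). The 11 catalytic and regulatory subunits listed above ran from -0.11 ± 0.12 for Atp5if1 to 0.19 ± 0.12 for Ndufs1. The group mean of 62 of the 79 genes was lowest in ICH (33% of all genes), that of 46 was highest in EDB (24.8%), and that of 27 put EDB between ICH and Sham with ICH lowest (21.4%).

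**Figure D2:**
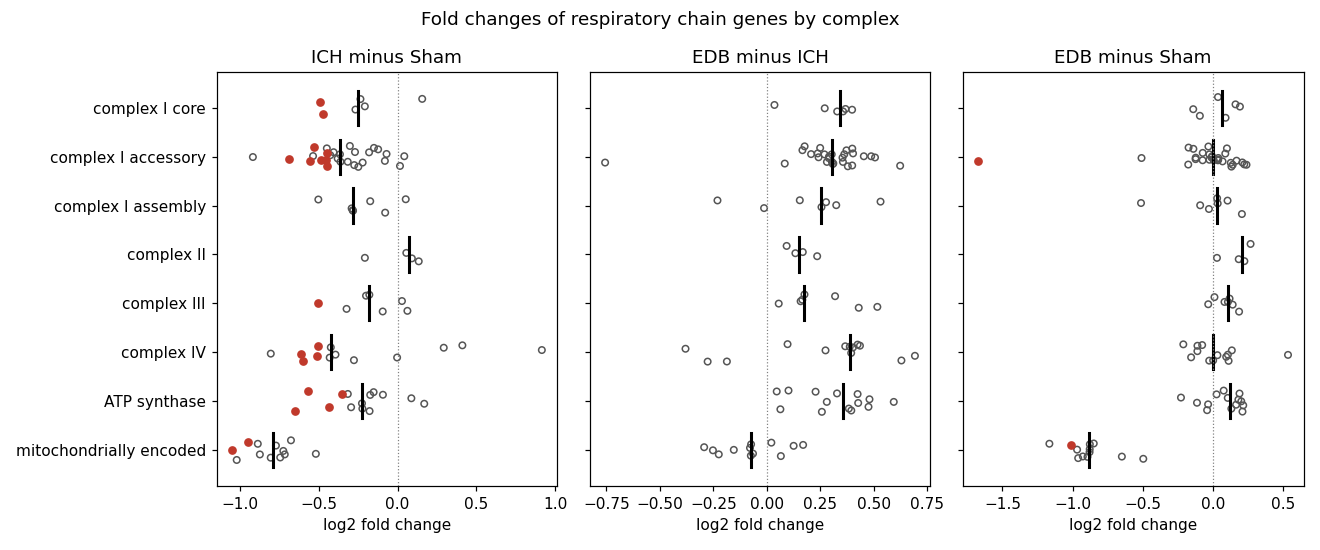
Each point is the log2 fold change of 1 tested gene in the comparison named above the panel, filled where the adjusted p was under 0.05, and black bars are medians of each complex, with the mitochondrially encoded genes on the bottom line. Nuclear medians other than that of complex II lie left of 0 in ICH minus Sham and all nuclear medians lie right of 0 in EDB minus ICH, while the mitochondrially encoded genes lie left of 0 against Sham in both groups.

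Of the 13 mitochondrially encoded genes, 12 passed the filter. They took 7.54%, 5.55% and 12.03% of all counts in Sham, 8.29%, 2.93% and 4.82% in ICH and 4.84%, 4.56% and 5.93% in EDB. Exact Clopper-Pearson 95% intervals, which cover counting error only, were narrow, at 12.02 to 12.05% for Sham 3 and 2.92 to 2.94% for ICH 2. The spread between libraries of 1 group was thus far above counting error, with Sham 3 the highest and ICH 2 the lowest library. Nuclear and mitochondrially encoded genes did not share this pattern: Sham 2 had the highest nuclear sum and the lowest mitochondrial share of its group, and ICH 1 the lowest nuclear sum and the highest mitochondrial share. Per count of a nuclear member there were 8.63, 5.85 and 15.2 mitochondrially encoded counts in Sham, 11.4, 3.52 and 5.79 in ICH and 5.08, 5.21 and 6.23 in EDB. The EDB ratios lay close together, and the ratios of all 3 groups overlapped, as did their mitochondrial shares. In both measures all EDB libraries lay inside the ICH range, and EDB 3 lay above Sham 2.

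In ICH against Sham 2 of the 12 fell, 0 rose and all 12 had a log2 fold change below 0, with a median of -0.79. Over all genes 7.30% fell and 11.4% rose. Sham 3 was the highest and ICH 2 the lowest library for each of the 12 genes, so they do not count as 12 separate observations. The median was -0.37 without Sham 3, -0.50 without ICH 2 and -1.25 without ICH 1. Mt-nd1, a core membrane subunit of complex I next to the quinone site, stood at 6949, 7469 and 12281 CPM in Sham, 6031, 3215 and 4586 CPM in ICH and 4116, 3944 and 5166 CPM in EDB. All ICH and EDB libraries were below all Sham libraries, and Mt-nd1 fell in ICH (-0.95 ± 0.27, adjusted p = 0.0317) and in EDB (-1.01 ± 0.27, adjusted p = 0.0456) against the same Sham libraries. Mt-nd3, a small core subunit that carries the loop exposed in the deactive state of complex I, stood at 496, 299 and 677 CPM in Sham, 312, 154 and 245 CPM in ICH and 249, 272 and 279.9 CPM in EDB. It fell in ICH (-1.05 ± 0.29, adjusted p = 0.0282) although ICH 1 lay above Sham 2, and it was not called in EDB (-0.88 ± 0.29, adjusted p = 0.0931). The Mt-nd1 call in ICH was lost without Sham 3, ICH 2 or ICH 3 (adjusted p between 0.0785 and 0.121), and the Mt-nd3 call without these or Sham 1 (between 0.0584 and 0.112). The count of 2 became 0 without Sham 3, ICH 2 or ICH 3, 1 without Sham 1, 7 without ICH 1 and 10 without Sham 2 and ICH 1 together, where the median was -1.49. DESeq2 called 5.

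The other complex I genes of the mitochondrial DNA encode proton-pumping or membrane-arm subunits. Mt-nd5, the pump at the far end of the arm, stood at 1336, 1093 and 2553 CPM in Sham, 1229, 507 and 984 CPM in ICH and 719.7, 661 and 839.99 CPM in EDB (-0.87 ± 0.35, adjusted p = 0.109 for ICH, -1.17 ± 0.35, adjusted p = 0.0683 for EDB, both against Sham). Mt-nd6, the gene on the other strand of the mitochondrial DNA, stood at 179.8, 155 and 282 CPM in Sham, 155, 47.5 and 131 CPM in ICH and 100.3, 95.98 and 120.3 CPM in EDB (-0.89 ± 0.36, adjusted p = 0.12 for ICH). Both had EDB libraries below all Sham libraries and 1 ICH library inside the Sham range. Mt-nd4l, which overlaps Mt-nd4 on the same transcript, stood at 40.3, 43.3 and 87.5 CPM in Sham, 41.05, 15.4 and 27.8 CPM in ICH and 29.6, 26.9 and 35.5 CPM in EDB (-1.02 ± 0.36, adjusted p = 0.0718 for ICH). The pump subunits Mt-nd2 and Mt-nd4 had ICH against Sham values of -0.77 ± 0.36 and -0.74 ± 0.43 and EDB against Sham values of -0.85 ± 0.36 and -0.97 ± 0.43, with none called. In Mt-nd4 ICH 1, at 1803 CPM, was above Sham 1 and Sham 2.

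Mt-cyb, cytochrome b of complex III, stood at 7778, 6192 and 13816 CPM in Sham, 8796, 2949.9 and 5075 CPM in ICH and 4788, 4278 and 6048 CPM in EDB (-0.72 ± 0.38, adjusted p = 0.224 for ICH). Mt-co1, the catalytic subunit of complex IV that holds the oxygen-binding site, stood at 42084, 34124 and 67205 CPM in Sham, 45467, 15646 and 26254 CPM in ICH and 28506, 27150.4 and 35776 CPM in EDB (-0.72 ± 0.36, adjusted p = 0.207 for ICH). ICH 1 lay inside the Sham range for both. Mt-co2, which accepts electrons from cytochrome c, and Mt-co3 had ICH against Sham values of -0.68 ± 0.49 and -0.52 ± 0.51. Mt-atp6, the proton channel subunit of ATP synthase, had 2841, 2094 and 5178 CPM in Sham, 3284, 941 and 1568 CPM in ICH and 1836, 1574 and 2095 CPM in EDB (-0.80 ± 0.42, adjusted p = 0.225 for ICH). None of these 5 genes was called in any comparison.

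In EDB against Sham 1 of the 12 fell, namely Mt-nd1, where 2.71% of all genes fell, and the median was -0.89, or -0.45 without Sham 3. In 8 of the 12 all EDB libraries lay below all Sham libraries, as in 10.9% of all genes. As the 12 genes varied together between libraries, counts among them are not counts of separate observations. The Mt-nd1 call was lost without Sham 1, Sham 3, ICH 3 or any 1 EDB library (adjusted p from 0.0507 to 0.17). The count became 3 without Sham 2 or without ICH 2 and 7 without Sham 2 and ICH 1 together. In EDB against ICH 0 of the 12 were called by edgeR, 0 by DESeq2 and 0 at an unadjusted p under 0.05, with a median of -0.07 that became 0.40 without ICH 1, 0.02 without EDB 2, 0.06 with limma-voom and -0.38 without ICH 2. All 12 genes had ICH and EDB means below the Sham mean (37.8% of all genes), and for 8 the EDB mean was the lowest (29.4% of all genes).

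**Figure D3:**
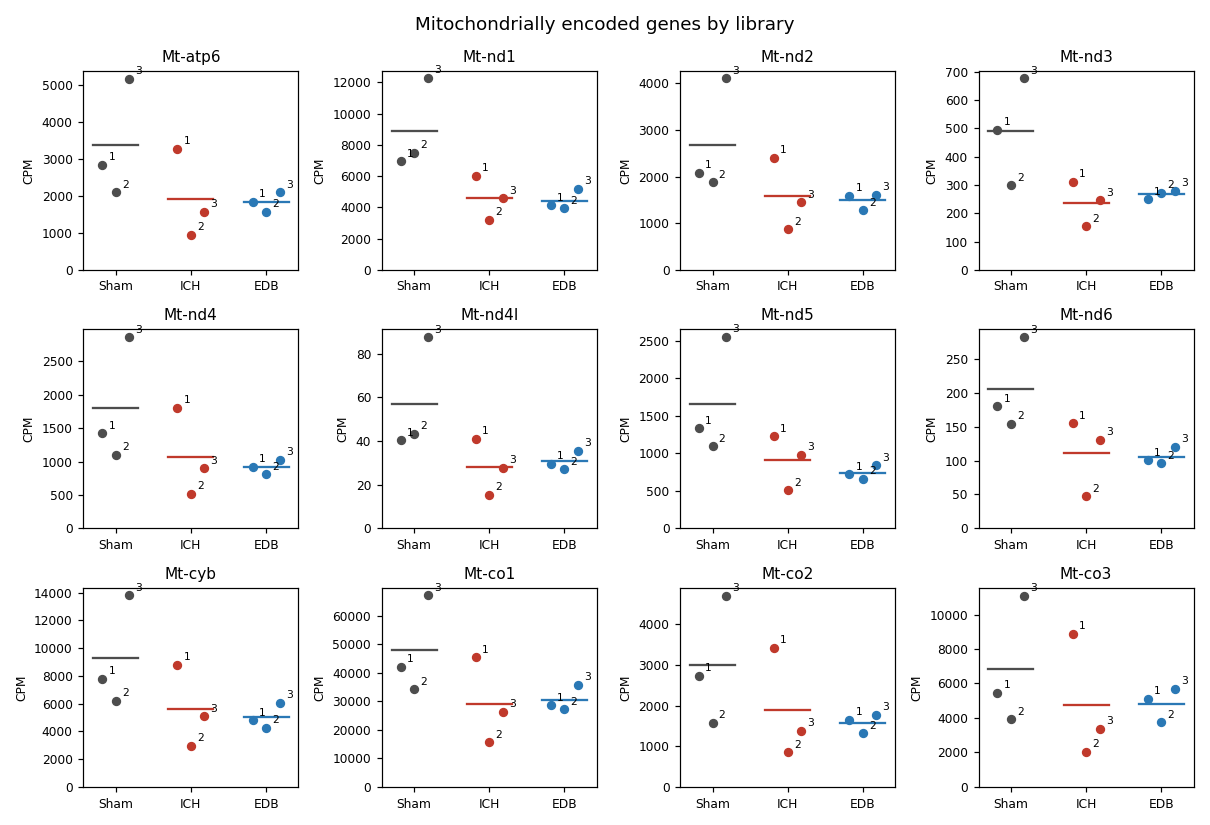
Each panel gives the CPM of 1 tested mitochondrially encoded gene in the 9 libraries, with points numbered by replicate and lines at the group means. Sham 3 is the highest library in every panel, ICH 2 the lowest, and the EDB points lie close together.

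Within the mitochondrially encoded counts, the shares of single genes varied less than the total. Mt-co1 took 57.3%, 56.9% and 53.8% of these counts in Sham, 55.6%, 56.4% and 57.1% in ICH and 57.5%, 60.1% and 59.2% in EDB. Mt-cyb took 10.6%, 10.3% and 11.1% in Sham, 10.7%, 10.6% and 11.04% in ICH and 9.65%, 9.48% and 10.01% in EDB. Mt-nd5 took 1.82%, 1.82% and 2.04% in Sham, 1.502%, 1.83% and 2.14% in ICH and 1.45%, 1.46% and 1.39% in EDB. The EDB shares were above both other groups for Mt-co1 and below both for Mt-cyb and Mt-nd5. In each gene the margin to the nearer group was narrower than the spread within the EDB group. The margin to the farther group was wider than that spread for Mt-cyb (ICH) and Mt-nd5 (Sham). These 3 genes were chosen after their shares had been seen, and the shares were not tested.

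Several subunits have tissue isoforms. Cox4i2, the isoform of Cox4i1 known from lung and from oxygen sensing, had 37, 40 and 45 counts in Sham, 52, 44 and 79 in ICH and 61, 42 and 41 in EDB, and was not called in ICH against Sham (0.29 ± 0.32, adjusted p = 0.589). The heart and muscle isoforms Cox6a2 and Cox7a1 had 1 to 24 and 7 to 27 counts per library, too few for a change to be read. Cox7a2l, which takes part in joining complexes III and IV, had 151, 167 and 156 CPM in Sham, 145, 169.9 and 158 CPM in ICH and 179.8, 161 and 165 CPM in EDB, with overlapping groups. Ndufa4, first described in complex I and now counted as a subunit of complex IV, had 46.9, 55.95 and 52.9 CPM in Sham, 39.8, 31.8 and 44.2 CPM in ICH and 46.6, 42.1 and 54.3 CPM in EDB, and all ICH libraries lay below Sham without a call (-0.43 ± 0.15, adjusted p = 0.0791). The copies Ndufa10l1 and Cox7a2l2 may share reads with near-identical genes, and their values are uncertain.

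Among the members that the filter removed, the testis isoform Cox8c and the pseudogenes Cox6b1-ps1 and Cox6c-ps1 had 0 counts in every library, which allows 0.162 to 0.212 CPM at 3 counts per library. Ndufa1, Ndufv3-ps1 and Cox7b2 had 0 to 7, 1 to 7 and 0 to 2 counts. Mt-atp8, whose reading frame overlaps that of Mt-atp6, had 1 count in Sham 1, Sham 3 and ICH 3 and 0 in the other 6 libraries. How reads shared between overlapping genes or copies were assigned is not given in the sources used here, so these low counts do not show that the transcripts were absent.

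Genes that serve the chain were read in 7 lists. In ICH against Sham, where 7.30% of all genes fell and 11.4% rose, 0 of 4 tested genes of cytochrome c and electron transfer, 0 of 28 assembly factors, 0 of 12 regulators, 0 of 17 TCA cycle genes and 0 of 68 mitochondrial ribosomal proteins were called. Their medians were 0.07, -0.08, -0.03, -0.08 and -0.06. Cycs, cytochrome c itself, had -0.28 ± 0.16, adjusted p = 0.255. Among regulators the mitochondrial RNA polymerase Polrmt had -0.48 ± 0.16, adjusted p = 0.0657, the mitochondrial transcription factor Tfam 0.32 ± 0.17, adjusted p = 0.234 and the coactivator Ppargc1a -0.41 ± 0.26, adjusted p = 0.316. Of 19 genes of mitochondrial DNA and RNA upkeep 1 fell, Twnk, the helicase of mitochondrial DNA replication (-0.71 ± 0.14, adjusted p = 0.00584). Of 8 carriers and creatine shuttle genes 1 rose, Ucp2, an inner-membrane carrier of the uncoupling protein family (2.05 ± 0.15, adjusted p = 2.01e-05), and it also rose in EDB against Sham (1.49 ± 0.14, adjusted p = 0.000467). Ucp2 is known from microglia and macrophages, whose markers rose in the same comparisons, and their part in its level was not tested. In EDB against ICH 0 genes of these 7 lists were called, where 0.687% of all genes were.

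**Figure D4:**
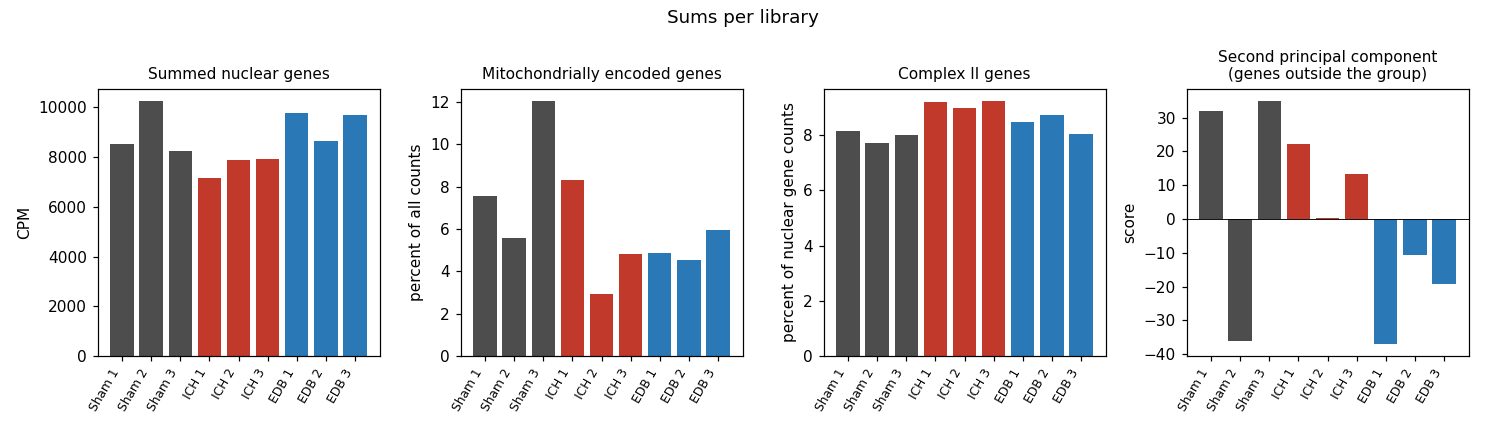
Bars give, for each of the 9 libraries, the summed CPM of the nuclear genes, the mitochondrially encoded share of all counts, the complex II share of the nuclear respiratory counts and the score on the second principal component of genes outside the respiratory chain. The ICH bars are lowest in the first panel and highest in the third, and Sham 2 stands apart from the other Sham libraries in the last.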

How the data were processed

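Gene expression in the striatum was measured by RNA sequencing in 9 rat libraries (3 Sham, 3 ICH, 3 EDB). The authors deposited whole-number read counts per gene, 1 library per file. The submitters' processing notes name the build Rnor_6.0 and list limma, HTSeq, HISAT2 and cutadapt. Versions, roles, annotation and strand setting of these were not given in the sources used here. Members were taken by name, with members and gene lists chosen with earlier results of these data known.

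The analysis used edgeR 4.0.16 under R 4.3.3: filterByExpr by group (14274 of 22890 genes kept), TMM scaling, 1 robust quasi-likelihood fit of group means over all 9 libraries, and the F test for each pair of groups, with Benjamini-Hochberg adjustment over all genes tested. Libraries held 14658110 to 17659936 counts, and 3 counts were the floor for a count of 0. Intervals are exact Clopper-Pearson at 95% and, like floors, cover counting error only. Named with values were the mitochondrially encoded genes, up to 10 called nuclear genes a direction by smallest p (the first 6 by p where fewer than 6 were called), 11 catalytic or regulatory subunits, isoform sets, genes removed by the filter, and up to 4 genes per list. Atp5me, Atp5mg, Atp5pf, Ndufb3, Ndufs3, Ndufs5 and Ndufs7, the other called genes, Sdhd, and the 5 promoters were chosen after their values were seen. Alternatives were RLE scaling, library size only, mitochondrially encoded genes left out, DESeq2 1.42.0, limma-voom (limma 3.58.1), no filter, a filter of at least 1 CPM in 3 libraries, a block for the replicate number, a fit of only the 6 libraries compared, and each library left out. Leaving out Sham 2 and ICH 1, or these and EDB 3, was added after seeing the data. The procedure was run on simulated data with planted changes larger than those of the nuclear genes called in ICH against Sham. It therefore does not show how well changes of their size are recovered. Symbols of 86 of the 99 members matched a RefSeq table on GRCr8, used for names and promoters, and the mitochondrially encoded IDs did not match. Results for some genes are not reported here.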

Additional observations from a re-analysis of the deposited data

How the results depend on the processing

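No called gene changed direction under any alternative. Of the medians, that of the mitochondrially encoded genes in EDB against ICH (-0.07) changed sign without ICH 1 (0.40), without EDB 2 (0.02), with limma-voom (0.06) and in both added settings (0.40 and 0.34), and that of the nuclear genes in EDB against Sham (0.04) without Sham 1 (-0.0037) or Sham 3 (-0.02). The nuclear count of 18 fallen genes in ICH against Sham became 6 with library size only, 11 with only the 6 libraries compared, 2 without Sham 2 and ICH 1 (median -0.12) and 5 without Sham 2, ICH 1 and EDB 3 (median -0.13), and ran from 6 to 18 when 1 library was left out, with 8 without Sham 2, 10 without Sham 1 or EDB 1 and 6 without ICH 1, ICH 2 or ICH 3. The mitochondrially encoded count of 2 became 5 with DESeq2, 0 with only the 6 libraries, 10 in both added settings (median -1.49) and 0 to 7 when 1 library was left out, with 0 without Sham 3, ICH 2 or ICH 3, 1 without Sham 1 and 7 without ICH 1. In EDB against ICH the nuclear count of 0 higher became 7 with DESeq2, 1 with limma-voom, and 0 to 2 when 1 library was left out, with 2 without Sham 2. In EDB against Sham the nuclear count of 1 lower became 0 with limma-voom, only the 6 libraries and both added settings, and 0 to 1 when 1 library was left out; the count of 0 higher became 1 without Sham 2 and ICH 1. The mitochondrially encoded count of 1 there became 4 with DESeq2, 7 without Sham 2 and ICH 1, 4 without Sham 2, ICH 1 and EDB 3, and 0 to 3 when 1 library was left out, with 3 without Sham 2 or ICH 2 and 0 without Sham 1, Sham 3, ICH 3, EDB 1, EDB 2 or EDB 3. The cause was not tested. Over all genes DESeq2 called 679 in EDB against ICH where edgeR called 98, and 1765 in EDB against Sham where edgeR called 1094. Same-numbered libraries of different groups had correlations of their deviations from -0.31 to 0.24, and differently numbered libraries from -0.23 to 0.33. The deviations were taken from the mean of each group of 3. The check therefore gave no sign of a pairing by number but cannot exclude one. With the replicate block the nuclear count was 5 in ICH against Sham and 0 in both other comparisons, the mitochondrially encoded count was 2 against Sham in both ICH and EDB, and the mitochondrially encoded median in EDB against ICH was 0.02. Where 1 library is left out of a group, the remaining 2 share the spread estimated over all libraries. Depth limits what can be read of Ndufa3, Cox6a2, Cox7a1 and the genes removed by the filter.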
